A study of Mus musculus with 16 samples.

Results

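Fatty acid synthesis and lipid droplet genes were followed through 16 mouse liver RNA libraries. The set holds 39 genes listed by name for their function, and all 39 had a row among the 16793 genes of the deposited table. They comprise 6 genes of de novo synthesis, 4 transcriptional controllers, 8 elongases and desaturases, 7 genes of glyceride esterification, 3 of lipolysis, 9 of the droplet surface and 2 of fatty acid uptake. The study holds 2 experiments on mice of wild-type genotype that were given primary liver cancer. In the first, OVX mice were females without ovaries, which are the main source of estrogen, and Sham mice were females that had the sham operation. In the second, LCAT livers overexpressed lecithin-cholesterol acyltransferase, the plasma enzyme that esterifies the cholesterol of lipoproteins, and Vec livers received an empty vector. Each of the 4 groups had 4 libraries of polyadenylated RNA from liver, taken at the end of the experiment, and the experiments shared no library. The labels state neither how the cancer was induced nor the ages, the vector, its promoter, the cells it reached or the sex of the mice in the second experiment. The labels do not say whether the liver samples held tumour or surrounding tissue, or whether each library was a separate animal, so p-values measure the spread between libraries.

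The liver turns surplus carbohydrate into fat. Citrate leaves the mitochondria and is cut to acetyl-CoA, acetyl-CoA carboxylase makes malonyl-CoA, and fatty acid synthase builds palmitate, which elongases and desaturases then lengthen and unsaturate. SREBP-1 answers mainly to insulin and ChREBP to carbohydrate, and both drive transcription of these enzymes. Acyl groups are joined to glycerol phosphate step by step, and the resulting triglyceride is stored in droplets coated by perilipins and CIDE proteins, released again by lipases, or exported in very-low-density lipoprotein.

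The values are read counts that were divided by a single factor for each library, called normalized counts here. Recovered totals ran from 12562943 reads in LCAT library 4 to 27110501 in OVX library 2. Values of a group are given for libraries 1, 2, 3 and 4 in that sequence, and means carry the SD over 4 libraries. Tests were made with limma on log2(value + 1) over all genes with a mean of at least 10, and adjusted p-values are Benjamini-Hochberg values over all genes tested, with 0.05 as the threshold. Fold changes are on that log2(value + 1) scale. Because the tissue is bulk liver, fewer cells of a type and less RNA per cell cannot be told apart.

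Lcat, the gene tied to both experiments, lies on chromosome 8 between bases 105939551 and 105943382 of the mm10 build. Its levels were 5014, 5074, 5106 and 4531 normalized counts in LCAT livers, against 3348, 2926, 4521 and 2980.1 in Vec livers. The fold of the means was 1.43 (log2 fold change 0.54, SE 0.14, adjusted p = 0.0168), and the call was lost with equal library totals and without Vec library 2 or 4, where adjusted p was 0.0678, 0.0522 and 0.0527. In the first experiment Lcat was lower, with 3389 ± 241 normalized counts in OVX livers and 5662 ± 61.9 in Sham livers (log2 fold change -0.74, SE 0.07, adjusted p = 0.000167).

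Libraries 1 and 4 formed the ends of most groups. Among members whose libraries 1 and 4 differed by 1.5-fold or more, libraries 2 and 3 both lay between them for 19 of 19 in OVX, 12 of 13 in Sham and 15 of 17 in LCAT livers, and no member differed that much in Vec livers. Over all genes the shares were 71.3%, 80.0%, 81.1% and 37.0% in the same 4 groups. With libraries 1 and 4 alone, limma called 0 members in either experiment, with 9 at an unadjusted p below 0.05 in OVX against Sham and 14 in LCAT against Vec. On the same libraries edgeR called 0 members, with 10 and 14 below 0.05 unadjusted. Almost no gene passed there, since limma called 0 of 13056 genes in OVX against Sham and 3 of 13101 in LCAT against Vec. Below 0.05 unadjusted were 1688 and 2165 genes by limma, and 1676 and 2187 by edgeR, which called 0 genes in both. All 23 members called in OVX and all 26 called with LCAT kept their direction in that limma fit.

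**Figure D1:**
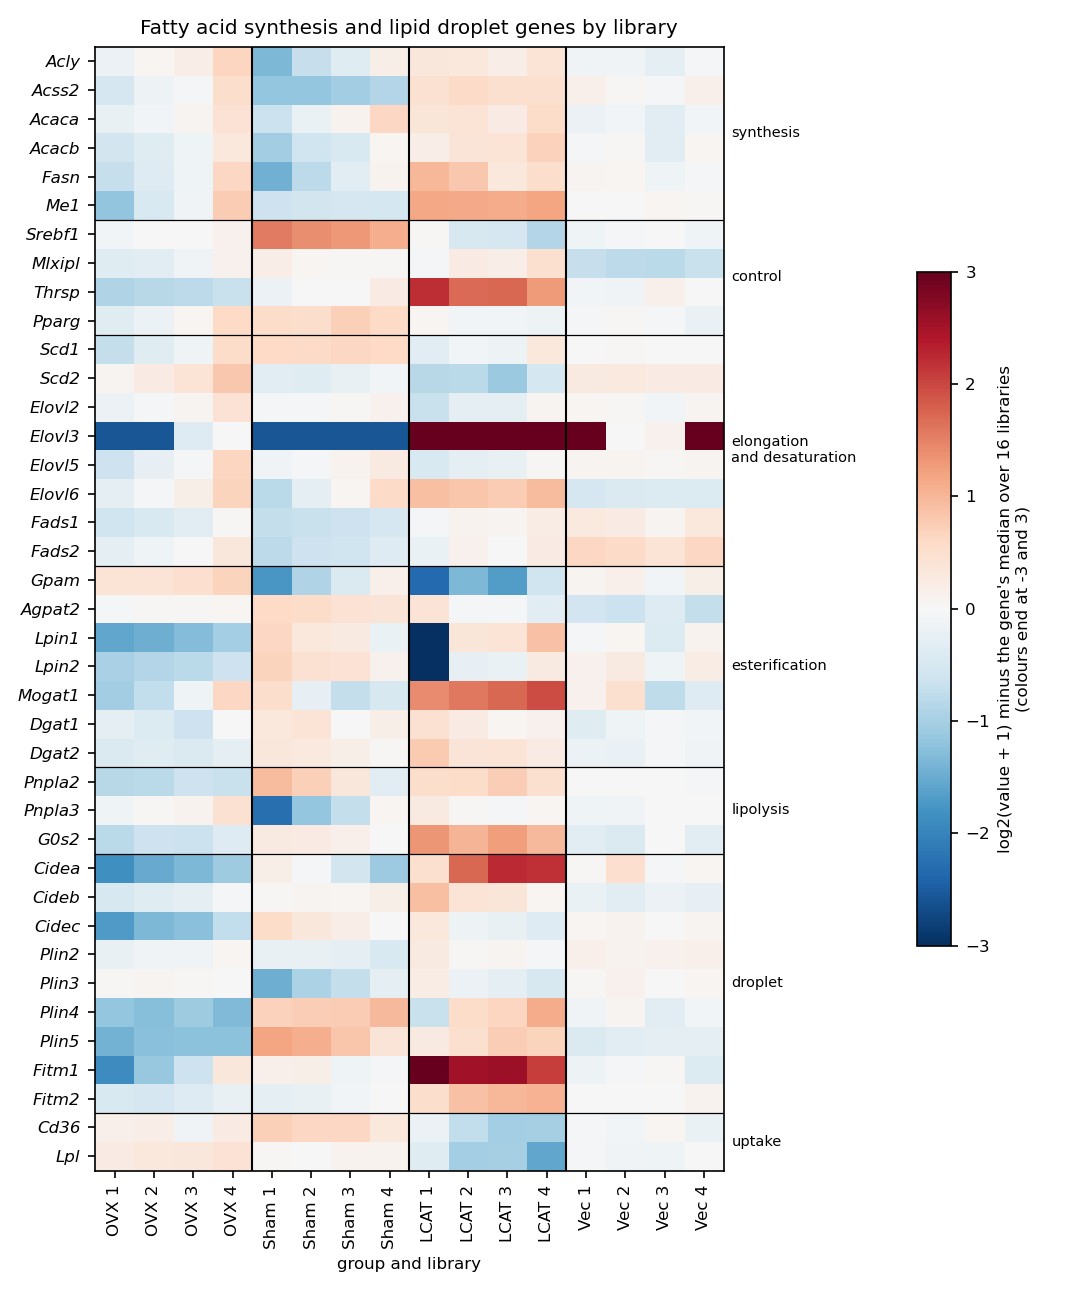
Level of the 39 genes, grouped by role, in each of the 16 libraries, as log2(value + 1) minus the gene's median over all libraries, with colours ending at -3 and 3. Plin4 and Plin5 are low in all 4 OVX libraries, Thrsp and Fitm1 are high in all 4 LCAT libraries, and Lpin1 and Lpin2 are low in LCAT library 1 alone of its group.

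OVX livers had lower transcript levels of many esterification and droplet members than Sham livers, without a matching fall in the synthesis enzymes. Of 38 members tested, 6 were called higher, 17 lower and 15 did not pass, and the median log2 fold change was -0.25. The background was high, since 39.6% of 13059 genes were called, 19% higher and 20.6% lower. The members' share of higher calls was therefore near the background and their share of lower calls above it. Groups did not overlap for 22 members, beside 39% of all genes. LCAT livers showed mostly the other direction, with 21 of 39 members called higher, 5 lower and 13 not past the threshold, at a median of 0.45. There 40.7% of 13095 genes were called, 20.2% higher and 20.5% lower, and groups did not overlap for 24 members, beside 40.5% of all genes. Scaling every library to an equal total moved the median of all genes by 0.24 in OVX against Sham and by -0.18 in LCAT against Vec. Under it 10 members were called higher and 12 lower in OVX livers, and 19 higher and 12 lower in LCAT livers, with 4445 higher and 1208 lower over all genes in the first and 1796 and 3962 in the second.

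**Figure D2:**
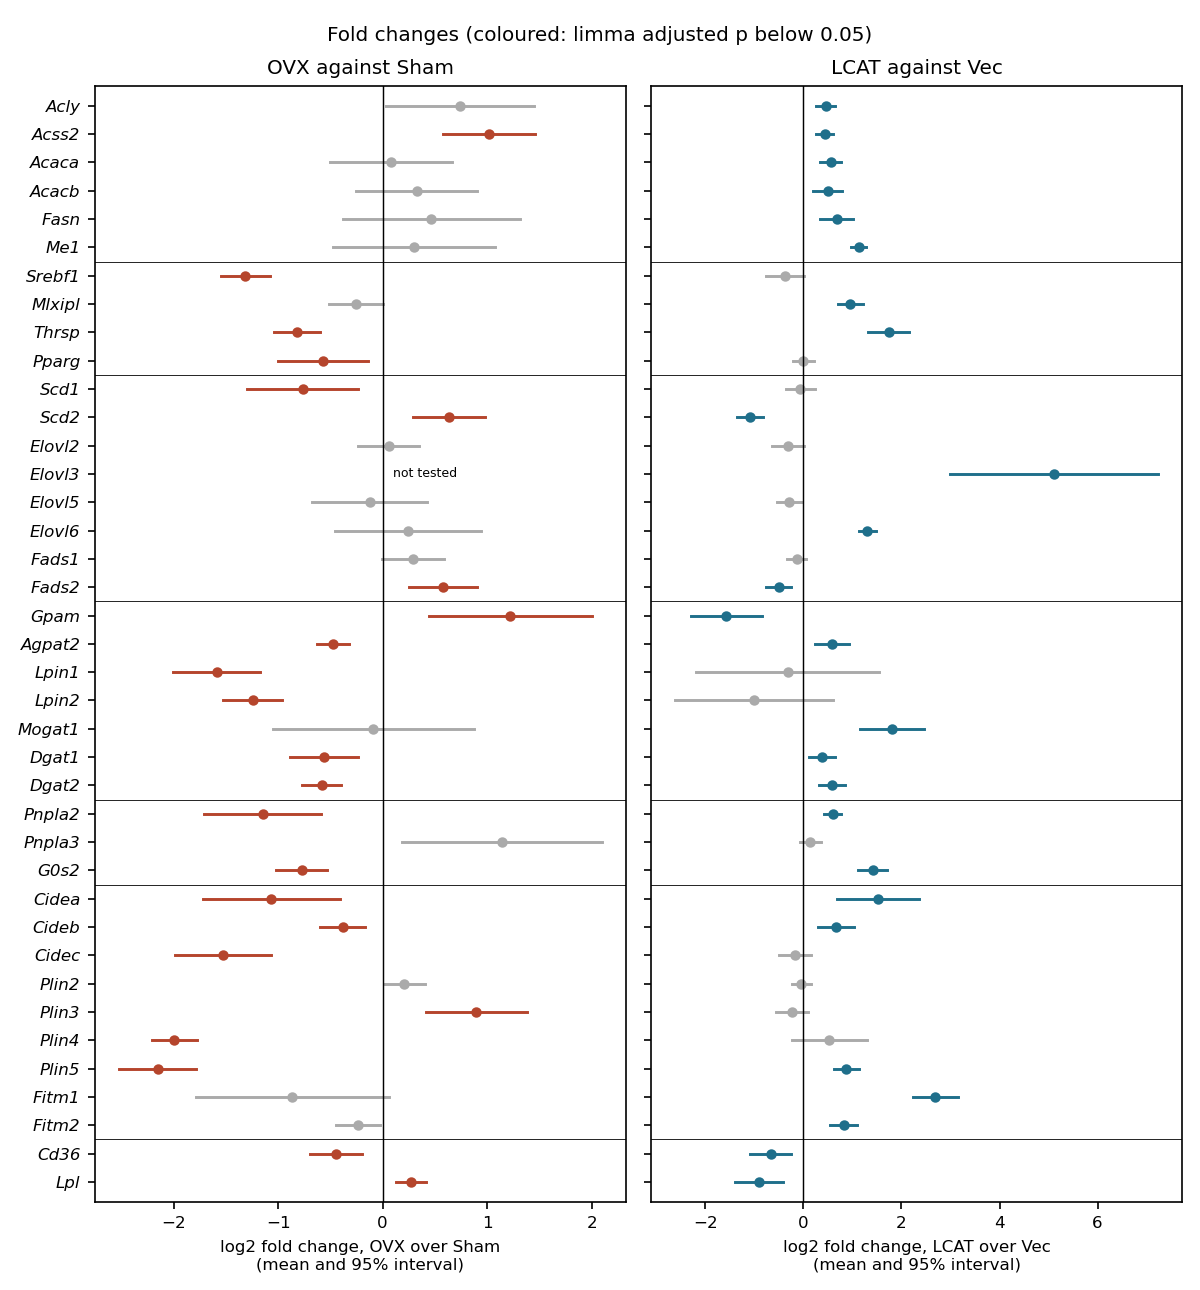
Log2 fold change of each of the 39 genes with its 95% interval, for OVX over Sham (left) and LCAT over Vec (right), ordered by role, with coloured points for an adjusted p below 0.05. Esterification and droplet genes lie mostly left of 0 in OVX livers, all 6 synthesis enzymes lie right of 0 and are coloured in LCAT livers, and the 2 horizontal scales differ.

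The 6 enzymes of de novo synthesis were all higher in LCAT livers, with no overlap between groups for any of them, while in OVX livers 1 of 6 was called higher and none lower. Among all genes tested, 20.2% were called higher with LCAT and 19% in OVX livers, and 40.5% had no overlap with LCAT. Fasn, fatty acid synthase, spans bases 120805846 to 120824547 of chromosome 11. It had 54408, 47512, 34136 and 39118 normalized counts in LCAT livers, against 28653, 28506, 24867 and 26029 in Vec livers (log2 fold change 0.68, SE 0.15, adjusted p = 0.00733). All 4 LCAT libraries stood above all 4 Vec libraries. Me1, the malic enzyme that supplies NADPH, showed the largest fold of the 6, with 9617, 9342, 9312 and 9681 in LCAT livers and 4220.4, 4334, 4452 and 4377 in Vec livers (log2 fold change 1.13, SE 0.07, adjusted p = 1.18e-05). The libraries of each group lay close together and the groups far apart. Acaca, the cytosolic acetyl-CoA carboxylase, had 3872, 4047, 3620.1 and 4444 in LCAT livers, against 2697, 2850.2, 2443 and 2857 in Vec livers (log2 fold change 0.56, SE 0.09, adjusted p = 0.00214). Acacb, the isoform at the mitochondrial surface whose malonyl-CoA restrains fatty acid entry, had 3077, 3545, 3597 and 4392 in LCAT livers and 2655, 2745, 2167 and 2793 in Vec livers (log2 fold change 0.49, SE 0.13, adjusted p = 0.0173). The Acacb call was lost with equal library totals, at an adjusted p of 0.132. Acly, ATP citrate lyase, had 12957, 12866, 11750 and 13592 in LCAT livers, against 9479, 9602, 8441 and 9922 in Vec livers (log2 fold change 0.45, SE 0.09, adjusted p = 0.00384). Acss2, which makes acetyl-CoA from acetate, had 4121, 4418, 4175 and 4181 in LCAT livers and 3300, 3038, 2883 and 3331 in Vec livers (log2 fold change 0.43, SE 0.08, adjusted p = 0.00319). Leaving out any 1 library left all 6 called higher, and a fit over all 16 libraries called 3 of them.

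In the OVX experiment Acss2 was the synthesis enzyme called. It had 2107, 2698, 2926 and 4275 normalized counts in OVX livers, against 1334, 1329, 1445 and 1632 in Sham livers (log2 fold change 1.02, SE 0.19, adjusted p = 0.00444), with every OVX library above every Sham library. The other 5 had positive estimates that did not pass, with a wide spread in both groups except for Me1 in Sham livers. Fasn had 16811, 20863, 25094 and 42234 in OVX livers and 9953, 15806, 22038 and 29430 in Sham livers, a log2 fold change of 0.47 with a 95% interval of -0.38 to 1.32. Sham library 4 held 2.96 times the Fasn level of Sham library 1, and OVX library 4 held 2.51 times that of OVX library 1. Acly had 9119, 10640, 11799 and 16072 in OVX livers, against 4007, 6397, 7939.5 and 11625 in Sham livers (log2 fold change 0.74, SE 0.31, adjusted p = 0.0881), and passed without Sham library 4, with equal library totals and in the fit over all 16 libraries, at adjusted p of 0.017, 0.0473 and 0.0252. Me1 was nearly level over the Sham libraries at 2799 to 2994 and ran from 1875 to 7224 in OVX livers, so the OVX libraries lay on both sides of Sham. Acaca and Acacb had fold changes of 0.08 (SE 0.26, adjusted p = 0.822) and 0.32 (SE 0.25, adjusted p = 0.33).

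**Figure D3:**
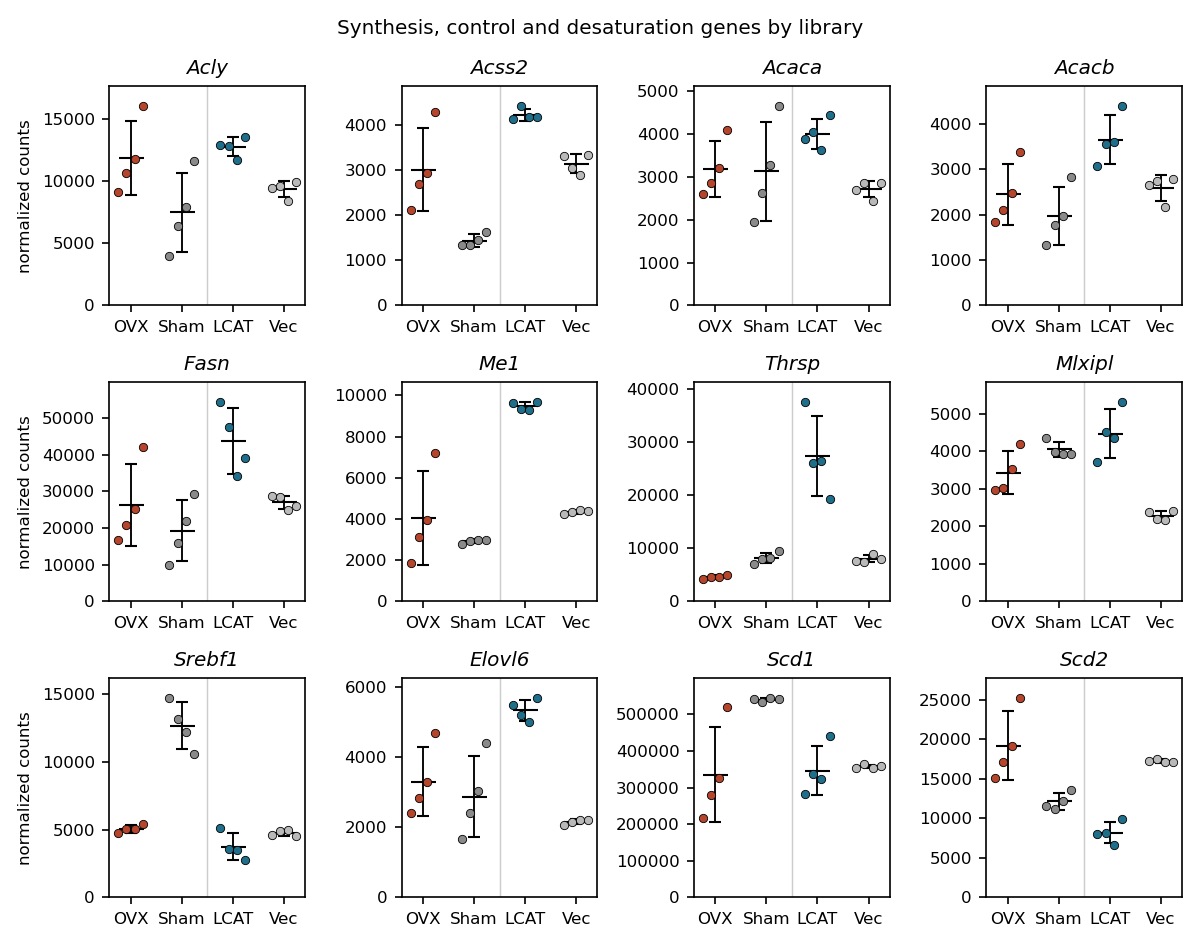
Normalized counts of 12 synthesis, control and desaturation genes in each library, with the mean and SD of each group of 4 drawn as a bar and whiskers, on linear axes that start at 0. The 4 LCAT points lie above the 4 Vec points for all 6 synthesis enzymes, while the OVX and Sham points overlap for 5 of the 6.

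Among the controllers, Srebf1, Thrsp and Pparg were called lower in OVX livers, and Mlxipl and Thrsp higher in LCAT livers. Srebf1 encodes SREBP-1, the sterol- and insulin-regulated activator of lipogenic genes. It had 4718, 5064, 5025 and 5445 normalized counts in OVX livers, against 14697, 13135, 12219 and 10588 in Sham livers (log2 fold change -1.31, SE 0.10, adjusted p = 0.000101). The groups were far apart and the OVX libraries close together, while the synthesis enzymes listed above did not fall. In the second experiment Srebf1 had 5090, 3602, 3495 and 2732 in LCAT livers and 4576, 4878, 4962 and 4542 in Vec livers (log2 fold change -0.38, SE 0.17, adjusted p = 0.103). Without LCAT library 1, which lay at the Vec level, the estimate was -0.54 and passed at an adjusted p of 0.00392. Srebf1 also passed as lower with equal library totals (-0.57, adjusted p = 0.0133) and in the fit over all 16 libraries (-0.38, 0.0454). Mlxipl encodes ChREBP, the carbohydrate-responsive activator, and had 3709, 4517, 4360 and 5322 in LCAT livers, against 2379.6, 2200.1, 2174 and 2407 in Vec livers (log2 fold change 0.96, SE 0.11, adjusted p = 0.000412). In OVX livers its fold change was -0.26 (SE 0.11, adjusted p = 0.107), and it passed without OVX library 4, at an adjusted p of 0.012. With equal library totals the Mlxipl estimate in OVX livers was -0.014 (adjusted p = 0.937).

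Thrsp, a lipogenic nuclear protein known as Spot 14 and a textbook ChREBP and thyroid hormone target, was lower in OVX and higher in LCAT livers. OVX livers had 4273, 4532, 4615 and 5042 normalized counts and Sham livers 7122, 8002, 8127 and 9488 (log2 fold change -0.82, SE 0.10, adjusted p = 0.000502). LCAT livers had 37498, 26104, 26404 and 19312 and Vec livers 7542, 7485, 8890.5 and 8020.3 (log2 fold change 1.74, SE 0.18, adjusted p = 0.000224). No library of one group reached the other group in either experiment, and the 2 effects differed by -2.56 in log2 units (adjusted p = 4.1e-07). Pparg, the nuclear receptor of adipocyte fat storage that is scarce in healthy liver, had 174, 199, 235 and 338 in OVX livers and 328, 326, 369 and 343 in Sham livers (log2 fold change -0.57, SE 0.19, adjusted p = 0.0406). OVX library 4 lay within the Sham range, and the call was lost when any 1 library other than OVX library 4 was left out (adjusted p = 0.0566 to 0.104) and with equal library totals, edgeR or no trend. With LCAT it did not pass, at 215 ± 13.1 in LCAT livers and 216 ± 14.5 in Vec livers (adjusted p = 0.981).

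Desaturases and elongases did not move as a block in either experiment. In OVX livers 2 of 7 tested were higher and 1 lower, and in LCAT livers 2 of 8 were higher and 2 lower. The shares called, 42.9% and 50%, were near the 39.6% and 40.7% of all genes tested. Scd1, the main stearoyl-CoA desaturase of liver, was by far the most abundant member per length of transcript, with means of 68582 normalized counts per kilobase in OVX, 110400 in Sham, 70740 in LCAT and 73109 in Vec livers. It made up 57.7% to 67.0% of the summed member counts in OVX libraries, 71.9% to 75.5% in Sham, 51.6% to 63.9% in LCAT and 62.0% to 63.4% in Vec libraries. Its counts were 217300, 278520, 326870 and 519320 in OVX livers, against 541210, 533270, 544360 and 541560 in Sham livers (log2 fold change -0.76, SE 0.23, adjusted p = 0.0311). All OVX libraries lay below Sham, OVX library 4 only slightly, and the call was lost with equal library totals at 0.118 and without any 1 library other than the 2 libraries numbered 4 (0.0595 to 0.0824). Sham libraries were thus nearly level for Scd1, whereas Fasn differed 2.96-fold between Sham libraries 4 and 1. LCAT livers did not pass for Scd1, at -0.07 (SE 0.13, adjusted p = 0.699) with a 95% interval of -0.36 to 0.23.

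Scd2, the desaturase paralogue best known from brain and fetal tissue, was higher in OVX livers with 15179, 17107, 19184 and 25259 normalized counts, against 11594, 11248, 12242 and 13609 in Sham livers (log2 fold change 0.63, SE 0.15, adjusted p = 0.012). It was lower in LCAT livers with 8032, 8210.2, 6658 and 9951, against 17235, 17577, 17149 and 17119 in Vec livers (log2 fold change -1.09, SE 0.12, adjusted p = 0.000262). Groups did not overlap in either experiment. Scd1 and Scd2 are close paralogues on chromosome 19 and the counting rule for shared reads is not given, so a share of Scd2 reads may belong to Scd1, which was far more abundant. Scd3, a further desaturase gene, ran from 3.65 to 4913 normalized counts over Sham and from 26.3 to 3669 over Vec libraries. The cause of that spread was not tested. Fads2, the desaturase that starts polyunsaturated fatty acid synthesis, had 11950, 13416, 14702 and 18390 in OVX livers and 8452, 9495, 9618 and 11287 in Sham livers (log2 fold change 0.58, SE 0.14, adjusted p = 0.0134). With LCAT it was lower, at 12737, 16133, 14592 and 17328, against 22378, 21689, 19423 and 22384 in Vec livers (log2 fold change -0.51, SE 0.11, adjusted p = 0.00754). Its neighbour Fads1, the next desaturase of that path, did not pass in either, at 0.29 (SE 0.13, adjusted p = 0.107) for OVX and -0.14 (SE 0.09, adjusted p = 0.23) for LCAT. With equal library totals Fads1 passed in the directions of Fads2, at 0.53 (adjusted p = 0.0232) for OVX and -0.33 (0.0324) for LCAT. The OVX and LCAT effects on Fads1 differed by 0.43 in log2 units (adjusted p = 0.042).

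Elovl6, which lengthens palmitate to stearate, had 5465, 5179, 4981 and 5677 normalized counts in LCAT livers, against 2058, 2155, 2196 and 2199.9 in Vec livers (log2 fold change 1.31, SE 0.07, adjusted p = 9.54e-06). The libraries of each group were alike, and the groups lay well apart. In the OVX experiment its groups overlapped at 2390.1 to 4678 in OVX and 1661 to 4385 in Sham livers. Elovl3, an elongase of very long saturated and monounsaturated chains, had the largest fold of the set with LCAT. Its values were 185, 705, 1062 and 1164 in LCAT livers, against 50.9, 4.88, 5.49 and 56.8 in Vec livers (log2 fold change 5.11, SE 0.93, adjusted p = 0.00336). LCAT library 1 was lowest of its group, and Vec libraries 1 and 4 stood far above Vec libraries 2 and 3. In the first experiment Elovl3 gathered 9 reads over 4 OVX libraries and 0 over 4 Sham libraries, under the mean needed for a test. The polyunsaturated elongases did not pass: Elovl5 had -0.13 (SE 0.24, adjusted p = 0.699) in OVX and -0.30 (SE 0.11, adjusted p = 0.0554) in LCAT livers, and Elovl2 had 0.06 (SE 0.13, adjusted p = 0.734) and -0.31 (SE 0.14, adjusted p = 0.112). Without LCAT library 4 both passed as lower with LCAT, at -0.39 (adjusted p = 0.00528) for Elovl5 and -0.44 (0.0126) for Elovl2. Both also passed as lower with equal library totals, at -0.48 (0.017) and -0.50 (0.0415), and Elovl5 with DESeq2 (-0.29, 0.0336).

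Among the 7 esterification members in OVX livers, Gpam was higher and 5 of the other 6 were lower. Of all genes tested there, 19% were called higher and 20.6% lower. Gpam, the mitochondrial acyltransferase that commits acyl groups to glycerol phosphate, spans bases 55067268 to 55127238 of chromosome 19. It had 10232, 10301, 10845 and 12165 normalized counts in OVX livers, against 2309, 4154, 5691 and 8609 in Sham livers (log2 fold change 1.22, SE 0.34, adjusted p = 0.0224). OVX libraries were alike, whereas Sham library 4 held 3.73 times Sham library 1, and the call was lost without OVX library 3 or Sham library 2 (0.0536 and 0.0609). With LCAT it was lower, at 1523, 3031, 2393 and 5088 in LCAT livers and 8154, 8529, 7282 and 8656 in Vec livers (log2 fold change -1.57, SE 0.31, adjusted p = 0.00516). Gpam was thus among the 5 members that were lower with LCAT while all 6 synthesis enzymes were higher.

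Lpin1 and Lpin2, phosphatidate phosphatases that yield diacylglycerol, fell most among the esterification members in OVX livers. Lpin1 had 1418, 1516, 1696 and 2083 normalized counts in OVX livers, against 6454, 5196, 5070.3 and 3636 in Sham livers (log2 fold change -1.59, SE 0.18, adjusted p = 0.00046). Lpin2 had 2658, 2844, 3005 and 3405 in OVX livers and 8360.4, 7250.3, 7039 and 5718 in Sham livers (log2 fold change -1.24, SE 0.12, adjusted p = 0.000259). Neither overlapped, and both calls were lost in a fit over all 16 libraries, whose spread took in LCAT library 1 (adjusted p = 0.0591 and 0.0814). In LCAT livers Lpin1 was 437, 5411, 5587 and 7675, against 4001, 4397, 3138 and 4512 in Vec livers, and Lpin2 was 518, 4432, 4552 and 6374, against 5747, 6356, 4825 and 6113. LCAT library 4 held 17.6 times the Lpin1 level and 12.3 times the Lpin2 level of LCAT library 1, and libraries 2 and 3 lay much nearer library 4. Lpin1 did not pass with all libraries, at -0.32 (SE 0.82, adjusted p = 0.77), and was higher without that library, at 0.63 (adjusted p = 0.0152). Lpin2 did not pass in either fit, at -1.0 with all libraries and -0.18 without it.

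Dgat1, Dgat2 and Agpat2 were lower in OVX and higher in LCAT livers, and Mogat1 was higher in LCAT livers. Dgat2, which completes triglyceride from newly made fatty acid and was the most abundant esterification gene per length, had 7716, 8126, 7785 and 8623 normalized counts in OVX livers, against 13150, 12758, 11758 and 10761 in Sham livers (log2 fold change -0.58, SE 0.08, adjusted p = 0.00115). It had 18065, 13665, 13833 and 12413 in LCAT livers and 9298, 9163, 10143 and 9706 in Vec livers (log2 fold change 0.58, SE 0.12, adjusted p = 0.00568). Dgat1, its unrelated counterpart for the same reaction, had 289, 261, 226 and 343 in OVX livers and 435, 461, 352 and 391 in Sham livers (log2 fold change -0.56, SE 0.14, adjusted p = 0.0155), and 479, 412, 359 and 379 in LCAT livers and 268, 317, 334 and 329 in Vec livers (log2 fold change 0.38, SE 0.12, adjusted p = 0.0349). Groups did not overlap for either gene, and the Dgat1 calls were the weaker ones. The OVX call was lost with equal library totals (0.0986), and the LCAT call was lost there too (0.194) and without LCAT library 2 or any 1 Vec library (0.0511 to 0.0966). Agpat2, which makes phosphatidic acid, had 3716, 3869, 3839.8 and 3927 in OVX livers, against 5745, 5552, 5119.6 and 4961 in Sham livers (log2 fold change -0.48, SE 0.07, adjusted p = 0.00116). It had 4981, 3675, 3687 and 2984 in LCAT livers and 2518, 2403, 2878 and 2312 in Vec livers (log2 fold change 0.58, SE 0.15, adjusted p = 0.0175), a call lost without Vec library 2 or 4 (0.0511 and 0.0531). Mogat1, which acylates monoacylglycerol and is low in normal liver, had 63.8, 71.5, 79.3 and 92.7 in LCAT livers, against 25.4, 32.9, 13.2 and 17.5 in Vec livers (log2 fold change 1.81, SE 0.28, adjusted p = 0.00166), and in the first experiment overlapped at 10.7 to 36.4 in OVX and 13.6 to 33.7 in Sham livers.

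**Figure D4:**
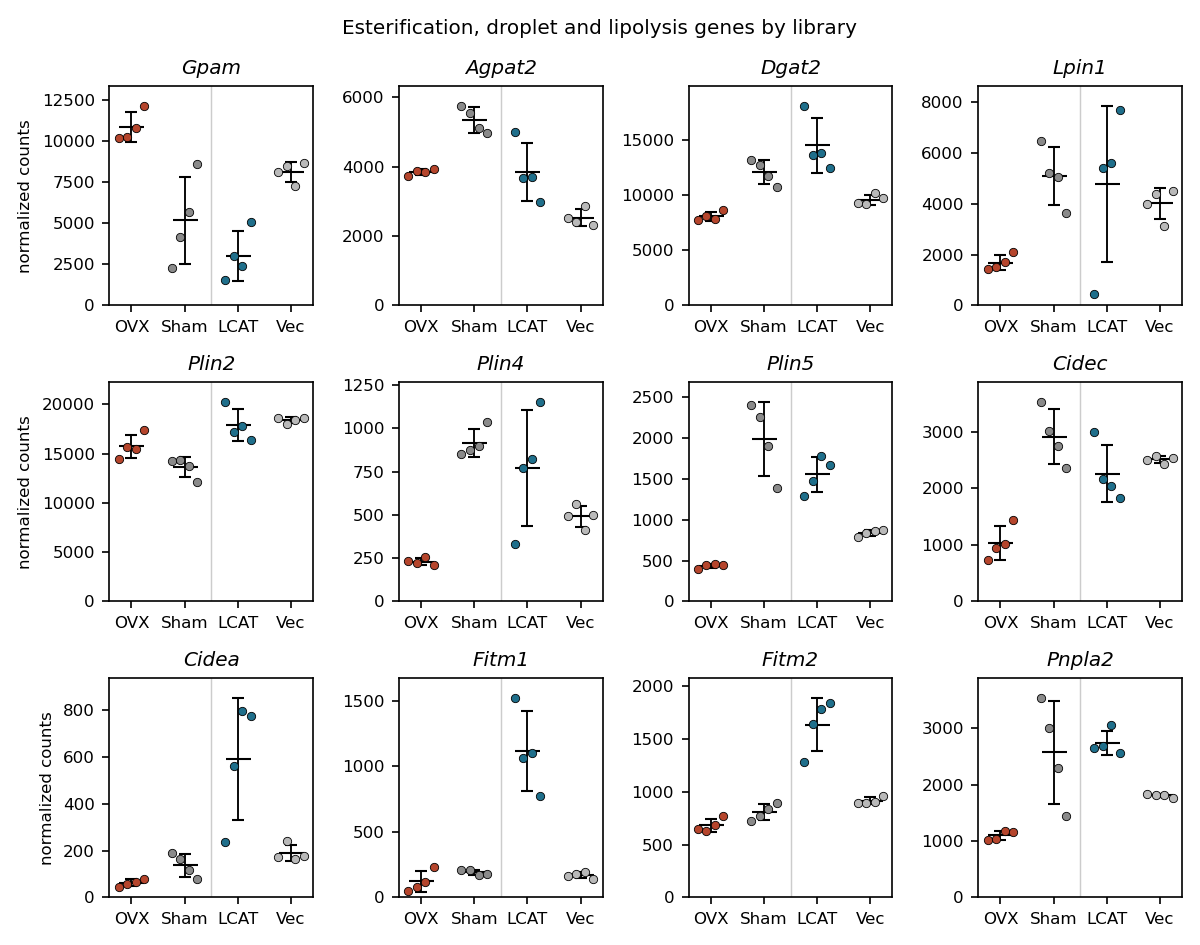
Normalized counts of 12 esterification, droplet and lipolysis genes in each library, with the mean and SD of each group of 4, on linear axes that start at 0. OVX points lie below Sham points for Plin4, Plin5, Cidec and Lpin1 and above them for Gpam, and LCAT library 1 is the lone low point of its group for Lpin1.

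Droplet genes held the 2 largest falls among the members in OVX livers, where 5 of 9 were lower and 1 was higher, at a median log2 fold change of -0.86. Of all genes tested there, 20.6% were called lower and 19% higher. Plin5, the perilipin that ties droplets to mitochondria in oxidative tissues, had 399, 446, 453 and 449 normalized counts in OVX livers, against 2404, 2259, 1899 and 1389 in Sham livers (log2 fold change -2.15, SE 0.16, adjusted p = 7.59e-05). Plin4, a coat of small and nascent droplets, had 235, 219, 254 and 209 in OVX livers and 851, 877, 901 and 1036 in Sham livers (log2 fold change -1.99, SE 0.09, adjusted p = 1.95e-05). Both genes were low in all 4 OVX libraries, with no approach to the Sham range. They lie next to each other on chromosome 17, Plin4 at bases 56100591 to 56109803 and Plin5 at 56111601 to 56117596. Plin3, a cytosolic perilipin that moves onto droplets and lies at bases 56277476 to 56292873 of the same chromosome, was higher, with 2474, 2555, 2462 and 2398 in OVX livers, against 867, 1246, 1471 and 1958 in Sham livers (log2 fold change 0.90, SE 0.21, adjusted p = 0.0116). Plin2, the ubiquitous hepatocyte coat and the most abundant droplet gene per length, had 14493, 15655, 15501 and 17375 in OVX livers and 14285, 14413, 13766 and 12168 in Sham livers (log2 fold change 0.21, SE 0.09, adjusted p = 0.085). Its groups just failed to overlap and the difference did not pass. Plin2 passed as higher with equal library totals (0.45, adjusted p = 0.00358) and with DESeq2 (0.21, 0.0477). Per length, the ratio of Plin5 to Plin3 ran from 0.292 to 0.34 in OVX libraries, against 1.29 to 5.03 in Sham libraries.

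Transcripts of the 3 CIDE proteins, which fuse droplets and lipidate lipoproteins, were lower in OVX livers. Cidec, known as FSP27 and a marker of fatty liver, had 732, 939, 1008 and 1439 normalized counts in OVX livers, against 3532, 3014, 2755 and 2362 in Sham livers (log2 fold change -1.53, SE 0.20, adjusted p = 0.000904). Cideb, the hepatocyte member that serves lipoprotein export, had 2298, 2460, 2602 and 3090.2 in OVX livers and 3280.3, 3383, 3292 and 3571 in Sham livers (log2 fold change -0.38, SE 0.09, adjusted p = 0.0139), a call lost with equal library totals (0.342). Cidea, best known from brown fat and steatotic liver, had 46.6, 58.7, 65.9 and 80.6 in OVX livers and 191, 165, 116 and 79.4 in Sham livers (log2 fold change -1.06, SE 0.29, adjusted p = 0.0196). Sham library 4 lay within the OVX range, and the Cidea call was lost without OVX library 1 or 2 or Sham library 2 (0.0524, 0.0512 and 0.0594). The defining adipocyte markers were at or near 0, with Adipoq at most 2.64, Plin1 at most 2.19 and Cfd at most 12.1 normalized counts in any library. Fabp4, also made by endothelium and macrophages, was the only abundant adipocyte marker, at 873 to 1006 in OVX, 924 to 1389 in Sham, 1006 to 2998 in LCAT and 1671 to 2259 in Vec livers. It did not pass in either comparison. The 4 adipocyte markers in the table summed to 873 to 1010.2 in OVX and 924 to 1389 in Sham livers, and to 1015 to 2998 in LCAT and 1682 to 2273 in Vec livers.

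In LCAT livers 5 of 9 droplet genes were higher and none lower, at a median of 0.66. Of all genes tested there, 20.2% were called higher and 20.5% lower. Fitm1, an endoplasmic reticulum protein of droplet formation best known from muscle, had 1521, 1066, 1102 and 777 normalized counts in LCAT livers, against 167, 178, 191 and 138 in Vec livers (log2 fold change 2.69, SE 0.20, adjusted p = 3.58e-05). Fitm2, its widely expressed paralogue, had 1277, 1635, 1779 and 1840.4 in LCAT livers and 896, 890.3, 905 and 960.2 in Vec livers (log2 fold change 0.83, SE 0.12, adjusted p = 0.00114). Both were clear of the Vec range in every LCAT library. The 4 skeletal muscle markers in the table summed to 38.6 to 88.7 in LCAT and 74.6 to 85.6 in Vec livers, 1 of the 2 tested was lower and none higher, and Tnnt3 and Mb were at 0 in all 8 libraries. In the first experiment neither Fitm gene passed, at -0.86 (SE 0.41, adjusted p = 0.121) and -0.24 (SE 0.09, adjusted p = 0.0735). Without OVX library 4 both were lower, at -1.25 (adjusted p = 0.0113) and -0.30 (0.0334), and Fitm2 also without Sham library 1 (0.0474). With equal library totals neither passed, at -0.62 (0.249) for Fitm1 and 0.004 (0.984) for Fitm2.

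Plin5 had 1285, 1476, 1776 and 1674 normalized counts in LCAT livers, against 789, 840.3, 860.1 and 876 in Vec livers (log2 fold change 0.87, SE 0.11, adjusted p = 0.000582). Its OVX and LCAT effects differed by -3.03 in log2 units (adjusted p = 5.15e-08). Cideb had 5928, 4217, 4099 and 3325 in LCAT livers and 2788, 2567, 2839 and 2671 in Vec livers (log2 fold change 0.66, SE 0.16, adjusted p = 0.0122). Cidea had 236, 562, 799 and 774 in LCAT livers and 173, 240.3, 166 and 176 in Vec livers (log2 fold change 1.52, SE 0.37, adjusted p = 0.012), and LCAT library 1 alone fell within the Vec range. Plin4 had 334, 774, 821 and 1153 in LCAT livers and 494, 562, 415 and 498 in Vec livers (log2 fold change 0.52, SE 0.33, adjusted p = 0.237). LCAT library 1 was again the lone low one, and without it Plin4 passed at 0.88 (adjusted p = 0.00292). Leaving out that library also made Cidec and Plin3 pass as lower, at -0.32 (0.0092) and -0.37 (0.00967). With all libraries those 2 genes stood at -0.18 (SE 0.14, adjusted p = 0.342) and -0.23 (SE 0.14, adjusted p = 0.213), and Plin2 at -0.05 (SE 0.08, adjusted p = 0.683). With equal library totals Cidec, Plin3 and Plin2 passed as lower, at -0.36 (0.0342), -0.42 (0.0197) and -0.23 (0.0174).

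The main droplet lipase and its inhibitor moved together in both experiments. Pnpla2 encodes adipose triglyceride lipase, which takes the first acyl chain off stored triglyceride. It had 1027, 1041, 1186 and 1159 normalized counts in OVX livers, against 3539.5, 3007, 2301 and 1444 in Sham livers (log2 fold change -1.15, SE 0.25, adjusted p = 0.00777), and 2649, 2691, 3062 and 2569.7 in LCAT livers, against 1836, 1824, 1813 and 1766 in Vec livers (log2 fold change 0.60, SE 0.08, adjusted p = 0.000686). G0s2, the small protein that blocks this lipase and was the most abundant lipolysis gene per length, had 610.5, 704, 694 and 829 in OVX livers and 1299, 1281, 1192 and 1066 in Sham livers (log2 fold change -0.77, SE 0.11, adjusted p = 0.00107). It had 2716, 2187, 2578 and 2098 in LCAT livers and 844, 794, 1088 and 868 in Vec livers (log2 fold change 1.42, SE 0.13, adjusted p = 0.000107). Groups did not overlap in any of these 4 comparisons. Pnpla3, a related droplet protein under SREBP-1 control, did not pass. Its values were 1459, 1647, 1724 and 2218 in OVX livers and 334, 722, 975 and 1657 in Sham livers (log2 fold change 1.14, SE 0.42, adjusted p = 0.06), where Sham library 4 held 4.96 times Sham library 1. Without Sham library 4 Pnpla3 was higher in OVX livers, at 1.5 (adjusted p = 0.00913). It also passed as higher with equal library totals (1.38, adjusted p = 0.0388), with DESeq2 (0.93, 0.042) and in the fit over all 16 libraries (1.14, 0.0125). With LCAT it stood at 0.14 (SE 0.09, adjusted p = 0.245).

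Both uptake genes were called in both experiments, beside 39.6% of all genes in OVX and 40.7% in LCAT livers. Cd36, the fatty acid translocase, had 4349.9, 4468, 3621 and 4615 normalized counts in OVX livers, against 6369.9, 5980.4, 6002 and 4879 in Sham livers (log2 fold change -0.45, SE 0.11, adjusted p = 0.0132), a call lost with equal library totals (0.112). It had 3464, 2329, 1932 and 1942 in LCAT livers and 3724, 3711, 4089.8 and 3397 in Vec livers (log2 fold change -0.67, SE 0.18, adjusted p = 0.0205). LCAT library 1 lay within the Vec range, and the call was lost without LCAT library 3 (0.0596) and without Vec library 1, 2 or 3 (0.0507, 0.0515 and 0.0545). Lpl, the lipoprotein lipase that frees fatty acids from circulating triglyceride, had 3289, 3430.4, 3494 and 3734 in OVX livers and 2828, 2782, 2963 and 2967 in Sham livers (log2 fold change 0.27, SE 0.06, adjusted p = 0.0103), a call lost in a fit over all 16 libraries (0.216). With LCAT it was lower, at 2144, 1365, 1378 and 936 in LCAT livers and 2666, 2549, 2532 and 2741 in Vec livers (log2 fold change -0.91, SE 0.22, adjusted p = 0.0112). Macrophages also make Cd36 and Lpl, and 8 of 9 macrophage markers were higher in LCAT livers and 1, Cd68, lower. Their summed level was 2125 to 4015 in LCAT and 1127 to 1404 in Vec livers, the reverse of both genes, and 3336 to 5129 in OVX and 4993 to 5567 in Sham livers, where 3 of 9 were lower and none higher. Their part in the results was not tested.

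Across both experiments 15 members were called in each, and 13 of them, 86.7%, moved in opposite directions. Over all genes 67.4% of the 2263 called in both did so. The 9 members that were lower in OVX and higher in LCAT livers were Thrsp, Agpat2, Dgat1, Dgat2, Pnpla2, G0s2, Cidea, Cideb and Plin5. The 4 that were higher in OVX and lower in LCAT livers were Scd2, Fads2, Gpam and Lpl. Acss2 was higher in both and Cd36 lower in both. The effects themselves differed for 26 of the 39 members, with 7 more positive in OVX and 19 more positive with LCAT, beside 44.8% of 13166 genes. Elovl3 is 1 of the 19, and it passed the filter on the mean through the second experiment alone, so its difference rests on the LCAT and Vec libraries. Synthesis enzymes were mostly not among them: Acly, Acaca, Acacb, Fasn and Me1 had adjusted p of 0.514, 0.188, 0.679, 0.713 and 0.0805 for the difference, and Acss2 passed at 0.038. The largest differences among droplet genes were -3.56 for Fitm1 (SE 0.48, adjusted p = 3.05e-05) and -3.03 for Plin5 (SE 0.20).

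Other features of the liver moved beside these genes. All 5 proliferation markers were higher in OVX livers, with summed levels of 1320 to 2299 in OVX and 156 to 267 in Sham livers, and none of 5 passed with LCAT, at 591 to 1014 in LCAT and 702 to 903 in Vec livers. The 4 tested liver tumour markers were all higher in OVX livers, summing to 11174 to 25993 in OVX and 7802 to 9562 in Sham livers, and 1 of 4 was higher in LCAT livers, at 5231 to 12695 in LCAT and 7773 to 10419 in Vec livers. Hepatocyte markers were abundant in every library, with 4 of 8 lower and none higher in OVX livers, and 3 higher and 1 lower in LCAT livers. They summed to 2294000 to 2449300 in OVX and 2660400 to 3873800 in Sham livers, and to 2200700 to 2982900 in LCAT and 2384700 to 2634400 in Vec livers. Of the 5 endothelial markers, 3 were lower in OVX livers and none higher, at sums of 2166 to 2225 in OVX and 3102 to 3204 in Sham livers. With LCAT 3 were higher and 1 lower, at 1649 to 2968 in LCAT and 1408 to 1733 in Vec livers. Of the 6 stellate cell markers, 2 were higher and 3 lower in OVX livers, at 4338 to 4507 in OVX and 5305 to 6432 in Sham livers, and 3 were higher and none lower in LCAT livers, at 3097 to 5795 in LCAT and 2738 to 3466 in Vec livers. Beside these marker counts, 39.6% of all genes tested were called in OVX and 40.7% in LCAT livers. The part of these features in the changes of the lipid genes was not tested.

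Promoter sequences are shown for a synthesis enzyme, an acyltransferase, a controller and a droplet coat, picked after the matches were seen, to show the CCAAT box that 19 of the 31 members with a window carried. RefSeq promoter windows of build GRCm38.p6, 300 bases each and ending 50 bases after a start site, matched 31 of the 39 members and gave 43 windows. The sequences below are all on the minus strand and are written 5′ to 3′, with capitals marking CCAAT, the box bound by NF-Y, or its reverse complement ATTGG. They lie at chr11:120824498-120824797 for Fasn, chr19:55127189-55127488 for Gpam, chr7:97417501-97417800 for Thrsp and chr17:56117499-56117798 for Plin5.
Fasn: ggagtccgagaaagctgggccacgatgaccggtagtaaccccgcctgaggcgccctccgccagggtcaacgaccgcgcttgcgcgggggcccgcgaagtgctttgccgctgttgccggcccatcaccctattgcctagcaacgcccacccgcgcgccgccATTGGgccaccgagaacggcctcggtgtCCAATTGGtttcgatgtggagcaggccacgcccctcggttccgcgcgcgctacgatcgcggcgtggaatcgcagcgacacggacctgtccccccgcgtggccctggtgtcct
Gpam: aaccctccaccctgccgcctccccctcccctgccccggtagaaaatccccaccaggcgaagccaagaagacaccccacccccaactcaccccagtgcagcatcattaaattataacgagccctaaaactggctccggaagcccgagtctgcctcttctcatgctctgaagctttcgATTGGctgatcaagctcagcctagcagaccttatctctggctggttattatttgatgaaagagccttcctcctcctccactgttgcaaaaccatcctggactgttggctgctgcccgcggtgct
Thrsp: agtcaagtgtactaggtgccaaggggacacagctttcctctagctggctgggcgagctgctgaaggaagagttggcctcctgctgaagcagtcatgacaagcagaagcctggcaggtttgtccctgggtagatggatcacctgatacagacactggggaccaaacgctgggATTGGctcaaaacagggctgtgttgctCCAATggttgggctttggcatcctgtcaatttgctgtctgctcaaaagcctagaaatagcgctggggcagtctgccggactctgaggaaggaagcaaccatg
Plin5: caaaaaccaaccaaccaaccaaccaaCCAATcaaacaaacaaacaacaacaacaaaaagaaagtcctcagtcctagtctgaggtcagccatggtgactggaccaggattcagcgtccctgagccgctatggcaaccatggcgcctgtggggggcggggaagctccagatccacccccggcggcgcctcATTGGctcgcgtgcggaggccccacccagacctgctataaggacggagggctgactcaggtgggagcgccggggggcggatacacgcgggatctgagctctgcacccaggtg

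Counting from the first transcribed base as 0, the marked boxes begin at -90, -62 and -59 in Fasn, where the last 2 overlap, at -74 in Gpam, at -79 and -52 in Thrsp, and at -224 and -62 in Plin5. Another window of Gpam, at chr19:55099428-55099727, and another of Plin5, at chr17:56117249-56117548, held no CCAAT box. A CCAAT box on either strand was present in 21 of the 43 member windows, 48.8%, beside 37.4% of all 32851 promoter windows. GGGCGG, the box of Sp1, was in 24 windows, 55.8%, beside 35.7%. The palindromic E-box CACGTG was in 4 windows, 9.30%, those of Elovl5, Lpin2, Mlxipl and Plin2, beside 7.15%. The sterol regulatory site TCACNCCAC was in 1, that of Mlxipl, beside 1.24%. Repeats of the nuclear receptor motif AGGTCA after 1 base or after 4 bases were in 0 of 43, beside 0.0396% and 0.0152%. Fasn and Thrsp, both higher with LCAT, and Gpam, which was lower, each carried CCAAT within 100 bases before the start site of the window shown. These are letter matches in short windows and not measured binding.

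The wider pathway was read through 75 further genes with roles in the same steps, of which 68 were tested in each comparison. In OVX livers 18 were higher and 19 lower, 54.4% of those tested beside 39.6% of all genes. In LCAT livers 23 were higher and 7 lower, 44.1% beside 40.7% of all genes, a share near the background. Among synthesis genes, Pklr, the liver pyruvate kinase that feeds carbon to citrate and a ChREBP target, was lower in OVX (-0.77, adjusted p = 0.00134) and higher in LCAT livers (1.19, 2.74e-05). It had 3896 to 5605 normalized counts in OVX livers and 7367 to 8314 in Sham livers, and 8263 to 10291 in LCAT livers and 4032 to 4115 in Vec livers. The NADPH-producing pentose phosphate enzymes G6pdx and Pgd were higher in OVX livers, at 1.18 and 0.72 (adjusted p = 0.000347 and 0.00144). Aacs, which activates acetoacetate for lipid synthesis, and Idh1, another NADPH source, were higher in LCAT livers at 0.49 and 0.44 (0.00297 and 0.0017). Of 13 further elongation and desaturation genes tested, 5 were higher and 2 lower in OVX livers, 53.8%. In LCAT livers 3 were higher and none lower, 23.1%. Cyb5a was lower in OVX and higher in LCAT livers, at -0.72 and 0.85 (0.000847 and 0.00488). Fads3 was higher in OVX livers at 0.47 (0.00275) and did not pass with LCAT (-0.21, 0.223).

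Among the remaining lipases and droplet proteins, Mgll, monoacylglycerol lipase, fell to 557 to 1907 normalized counts in OVX livers, against 4216 to 5477 in Sham livers (-1.91, adjusted p = 0.0038), and stood at 3646 to 5093 in LCAT livers and 931 to 2114 in Vec livers (1.41, 0.0038). Hsd17b11, a droplet-bound dehydrogenase, had the same pair of directions, at -1.16 in OVX (0.0014) and 1.33 in LCAT livers (0.000416). Hsd17b13, a further droplet gene, was lower in OVX livers at -0.85 (0.000706) and did not pass with LCAT (-0.38, 0.134). Pnpla5, a further lipolysis gene, was higher in OVX livers at 1.61 (0.000989) and did not pass with LCAT (-0.19, 0.201). Hilpda, a hypoxia-inducible inhibitor of adipose triglyceride lipase, was lower in both, at 164 to 201 in OVX livers and 366 to 479 in Sham livers (-1.25, 0.000164), and at 122 to 148 in LCAT livers and 340.4 to 403 in Vec livers (-1.49, 2.56e-05). Abhd5, the coactivator of the same lipase, was higher in OVX livers with 2571 to 2909, against 1491 to 1541 in Sham livers (0.80, 9.03e-05), while the lipase transcript itself was lower there.

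In esterification, Gpat4, the glycerol phosphate acyltransferase of the endoplasmic reticulum, moved against Gpam in both experiments, at -0.96 in OVX (adjusted p = 0.00456) and 1.17 in LCAT livers (0.00243). Gpat3, its close paralogue, was lower in both, at -1.24 and -0.63 (0.00553 and 0.00317). Lpin3, the third lipin, was higher in OVX livers at 0.48 (0.0387) and lower in LCAT livers at -0.94 (0.000856). Agpat1 was higher in both, at 1.11 and 0.39 (0.0158 and 0.0123), and Mogat2 in OVX livers, at 1.32 (0.041). Agpat3 was lower in OVX livers at -0.44 (0.00255) and higher in LCAT livers at 0.38 (0.00549). Of the 8 further esterification genes tested, 4 were higher and 3 lower in OVX livers, and 3 higher and 2 lower in LCAT livers. For fatty acid handling, Fabp5, a binding protein of epithelia and tumours, reached 3937 to 5187 normalized counts in OVX livers, against 1433 to 1576 in Sham livers (1.62, 2.7e-05). Fabp1, the liver binding protein, reached 51348 to 63589 in LCAT livers, against 23603 to 26700 in Vec livers (1.15, 5.41e-05). Insig1, which retains SREBP in the endoplasmic reticulum and is itself induced by it, was higher in OVX livers at 8403 to 10957, against 4088 to 5401 in Sham livers (1.0, 0.000381). With LCAT it was lower, at 4722 to 8021 in LCAT livers and 8024 to 8418 in Vec livers (-0.47, 0.0395). Of the 10 further control genes, Insig1 was the 1 called higher in OVX livers, and 3 were lower. These were Scap at -0.41 (0.00625), Insig2 at -0.82 (0.0185) and Ppargc1b at -1.74 (0.019). In LCAT livers 2 of the 10 were higher and 2 lower.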

How the data were processed

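Liver RNA of 16 libraries, 4 per group, was measured by sequencing of polyadenylated RNA. The deposited table holds 1 signal value per gene and library, headed normalized counts by the authors. The submitters' processing notes name FastQC, HISAT2, SAMtools and StringTie and the mm10 build, while no source used here states versions, the counter, its strand setting or the annotation. Every deposited signal value was a whole multiple of 1 step per library within 0.01 read, so the reads were recovered and totalled. Averaged over genes, counting error was small beside the spread between libraries at these depths. That average does not describe genes with few reads, such as Mogat1 and Elovl3, with 88 and 132 reads over the Vec libraries.

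Columns were matched to samples by title. The main test was limma 3.58.1 (trend, robust) in R 4.3.3 on log2(value + 1), over genes with a mean of at least 10 in the fitted libraries, within each experiment. The difference between effects was fitted over all 16 libraries. As alternatives, the recovered counts were tested with DESeq2 1.42.0 and edgeR 4.0.16, beside other pseudocounts, filters and scalings, a replicate block, leaving out each library and libraries 1 and 4 alone. edgeR on libraries 1 and 4 alone was added after seeing the data. The tests were checked on simulated counts, drawn independently for each library with a fixed dispersion and planted effects. The simulation did not copy the order of libraries within the OVX, Sham and LCAT groups. It therefore cannot show how that order affects the calls. Gene positions and exon lengths came from GENCODE M21, where 16479 of 16793 genes matched, and promoters from RefSeq. The 39 members, the marker and pathway lists and the tests were chosen with earlier results of these data known.

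Values and statistics were given for every member past the threshold without overlap and for the most abundant member per length of each role. The further pathway genes were taken from the 3 smallest p-values per role and direction. No 2 libraries of a group held identical values.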

Additional observations from a re-analysis of the deposited data

Results flagged for a closer look

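In 160 groups of 4 libraries examined, 5 held a library whose gap to its nearest neighbour passed Dixon's critical share of the group's range, and chance flags about 1 group in 20. Elovl5 had 13336 normalized counts in Vec library 3, apart from the other 3 Vec libraries. Mlxipl had 4365 in Sham library 1, apart from the other Sham libraries. Cidea had 240.3 in Vec library 2, the highest of its group. Plin5 had 399 in OVX library 1, a little under the other 3, and all 4 lay far below the Sham libraries. Lcat had 4531 in LCAT library 4, the lowest of its group and just above the highest Vec library, which had 4521.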

How the results depend on the processing

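Equal library totals gave 10 members higher in OVX livers and 12 lower in LCAT livers, and took Lcat in LCAT against Vec to 0.35 (adjusted p = 0.0678). Libraries 1 and 4 alone gave 0 members in either direction in both experiments by limma and by edgeR, and 2 and 1 members whose effects differed. Over all genes they gave 0 in OVX against Sham and 3 in LCAT against Vec by limma, and 0 in both by edgeR. The effects differed for 97 and 83 of 13135 genes in these fits. There Lcat stood at -0.77 by both tools for OVX (adjusted p = 0.272 and 0.285) and at 0.59 by both for LCAT (0.292 and 0.295). Leaving out 1 library at a time gave 4 to 8 members lower in LCAT livers, the highest without LCAT library 1, and 0.47 to 0.68 for Lcat there. Lpin1 with LCAT ran from -0.75 without LCAT library 4 to 0.63 without LCAT library 1. The cause of these changes was not tested.

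Replicate numbers did not pair the libraries, since deviations of same-numbered libraries correlated between -0.06 and 0.12. A replicate block gave 10 members higher in OVX livers, with Acly, Acacb, Fasn and Pnpla3 newly past the threshold (adjusted p = 0.0154, 0.0219, 0.0294 and 0.0335), made Fitm2 lower in OVX livers (0.0446), and ended the OVX call of Cidea (0.0681) and the LCAT call of Dgat1 (0.0977). Of the called members, 13 of 23 in OVX and 20 of 26 in LCAT livers stayed past the threshold in every alternative other than those with libraries 1 and 4 alone. edgeR on all libraries called 22 of the 23 and 26 of the 26. Too few reads kept Elovl3 out of the test in the OVX experiment.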

Other observations

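Ratios of members within a library, taken per length of transcript, varied in some groups and not in others. Scd1 exceeded Fasn by a ratio of 27.5 to 29.9 in OVX libraries, although Fasn itself differed 2.51-fold between OVX libraries 4 and 1, and by 41.2 to 122 in Sham libraries. The same ratio was 11.6 to 25.2 in LCAT libraries and 27.7 to 31.9 in Vec libraries. Lpin1 over Gpam was 0.0956 to 0.118 in OVX and 0.291 to 1.93 in Sham libraries, and 0.198 to 1.61 in LCAT and 0.297 to 0.359 in Vec libraries. Plin5 over Plin3 was 0.831 to 1.77 in LCAT and 0.577 to 0.649 in Vec libraries. The 39 members together took 2.05% to 4.44% of the normalized counts in OVX libraries and 3.18% to 3.74% in Sham libraries, and 2.51% to 3.56% in LCAT and 3.15% to 3.30% in Vec libraries.

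The spread of members also differed by group. Their highest library was at least 2-fold above their lowest for 7 members in OVX, 11 in Sham, 7 in LCAT and 2 in Vec livers. In Sham livers these included Pnpla3, Gpam, Fasn, Acly and Elovl6, whose library 4 held 4.96, 3.73, 2.96, 2.90 and 2.64 times library 1, while Pnpla2 there held 0.41 times. In OVX livers Fitm1, Me1 and Mogat1 stood at 4.73, 3.85 and 3.40 times in library 4 relative to library 1.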
